A study of Mus musculus with 2 samples.

Results

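Fatty acid oxidation turns stored fat into acetyl-CoA, reduced electron carriers and, in some tissues, ketone bodies. Long-chain fatty acids enter the mitochondrial matrix as carnitine esters and are shortened there by repeated rounds of dehydrogenation, hydration, oxidation and thiolysis, while peroxisomes shorten very-long-chain and branched substrates with their own set of enzymes. Adipocytes store and release fatty acids, and they also burn part of them. TET2 oxidises methylated cytosine, mostly in CpG dinucleotides, and it reaches DNA through partner proteins because it has no DNA-binding domain of its own.

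The 29 genes described here encode enzymes and carriers of fatty acid oxidation and ketone body metabolism, listed by name and looked up among the 21951 protein-coding genes of the GENCODE M21 annotation of GRCm38. All 29 were found. The cells were adipose-derived stem cells of mouse inguinal white adipose tissue, grown to passage 3 and differentiated in culture with IBMX, dexamethasone and insulin, then kept in insulin. Chromatin bound by TET2 was sequenced in 1 library and input chromatin in 1 library, so values come without an error between replicates and conditions could not be tested against each other. The list of peaks deposited for the TET2 library was examined, and it holds no RNA level by which the adipocyte label could be checked against marker genes.

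A peak is an interval where the TET2 library had more fragments than the background estimated by the peak caller MACS2. The list holds 14103 peaks, with lengths of 375 to 3392 bp (median 426 bp). The −log10 p that MACS2 gave each of them lay between 3.07 and 335 (median 6.21). Of these peaks 2182, or 15.5%, have a value under 5, among them those at Crat and Acads. The calling threshold named in the study would have left these out, and the list was used as deposited. The study states a volume of sequence data but no mapped read totals per library, and none come with the list, so the number of reads behind a peak is unknown. A peak was placed by its midpoint, and a gene counted as having a promoter peak when a midpoint lay within 1 kb of any annotated transcription start site (TSS) of the gene. Over the whole genome 5824 peaks, or 41.3%, lay within 1 kb of a TSS of some gene.

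A promoter peak was found at 17 of the 29 genes, or 58.6% (exact 95% binomial interval 38.9% to 76.5%, which treats genes as independent draws). The share among all protein-coding genes was 24.6%. They were Crat of the carnitine shuttle, Acadl, Acadm, Hadha, Hadhb, Hadh, Eci1 and Decr1 of mitochondrial β-oxidation, Etfa and Etfdh of the electron transfer flavoprotein system, Ehhadh, Hsd17b4 and Acaa1a of peroxisomal β-oxidation, the thioesterase gene Acot1, and Bdh1, Oxct1 and Acat1 of ketone body metabolism. The 17 genes carry 16 distinct peaks, because Hadha and Hadhb share a single peak. None of the 29 genes had its nearest peak 1 to 3 kb from a TSS, against 3.94% of coding genes. A single gene, Acads, had a peak in the gene body only, against 7.93% of coding genes. The other 11 genes had no peak by any of these rules.

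**Figure D1:**
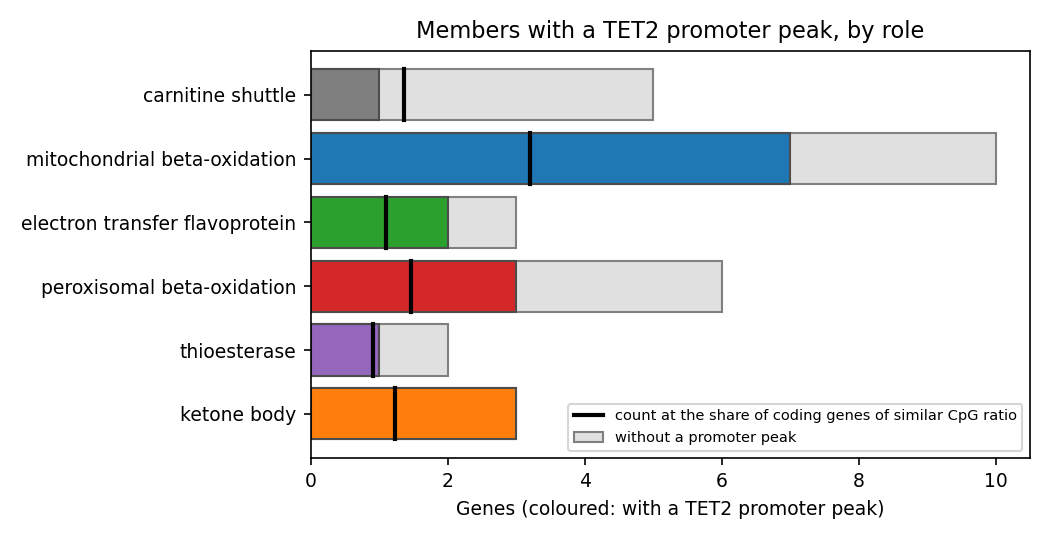
Number of genes (x axis) in each role of the pathway (y axis), with the coloured part of a bar counting genes with a TET2 promoter peak and the grey part those without one. The black line marks the count that the share among coding genes of similar CpG ratio would give. The count exceeds the line for mitochondrial β-oxidation (7 of 10 against 3.21) and ketone body genes (3 of 3 against 1.23). It also does for the electron transfer flavoprotein system (2 of 3 against 1.10) and peroxisomal β-oxidation (3 of 6 against 1.47). For the carnitine shuttle (1 of 5 against 1.36) and the thioesterases (1 of 2 against 0.904) the count is the whole number nearest to the line.

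Sequences under 5 of these peaks are shown, each a part of an interval enriched in the TET2 library. A peak does not show which of its bases TET2 contacted. The 5 include the peaks with the largest −log10 p, at Ehhadh and Etfdh, and the peak that Hadha and Hadhb share. The others, at Crat and Decr1, have the smallest −log10 p among the peaks eligible for display. Each line gives the longest stretch within 100 bp of the peak's midpoint that is free of annotated UTR, read from the RefSeq copy of GRCm38 on the minus strand, which is the strand of these genes except Hadhb. Capitals mark CpG dinucleotides, the substrate context of TET2.
Ehhadh, chr16:21787808-21787970: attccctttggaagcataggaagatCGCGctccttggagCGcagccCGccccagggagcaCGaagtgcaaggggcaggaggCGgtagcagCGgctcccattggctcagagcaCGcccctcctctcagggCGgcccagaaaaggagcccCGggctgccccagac
Etfdh, chr3:79628945-79629078: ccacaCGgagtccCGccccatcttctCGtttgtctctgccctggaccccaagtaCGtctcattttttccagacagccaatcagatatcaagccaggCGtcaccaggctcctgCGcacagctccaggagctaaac
Decr1, chr4:15945242-15945351: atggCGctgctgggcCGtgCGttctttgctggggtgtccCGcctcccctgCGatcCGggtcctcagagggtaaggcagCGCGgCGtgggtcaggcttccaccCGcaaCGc
Crat, chr2:30416302-30416398: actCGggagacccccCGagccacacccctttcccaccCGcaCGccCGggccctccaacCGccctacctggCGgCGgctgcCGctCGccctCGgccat
Hadha and Hadhb, chr5:30155188-30155247: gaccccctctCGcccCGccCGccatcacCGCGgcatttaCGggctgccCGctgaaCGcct
The Ehhadh stretch lies directly upstream of the TSS and holds 10 CpGs in 163 bp. The Etfdh stretch holds 6 in 134 bp and the Decr1 stretch, which begins at the start of a coding sequence, 11 in 110 bp. The Crat stretch holds 11 in 97 bp. It lies upstream of Crat and outside that gene, and the coding TSS nearer to the peak's midpoint is that of Ptpa. Read on the other strand the Crat stretch begins with ATG, and whether it is coding sequence of Ptpa was not tested. The shared stretch between Hadha and Hadhb holds 8 in 60 bp. The Ehhadh and Etfdh stretches thus do not hold more CpGs per base than those of Crat and Decr1. They differ in length and in their place relative to the gene, so how peak strength relates to CpG density cannot be read from them.

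The carnitine shuttle brings long-chain acyl groups into the mitochondrion. Cpt1a and Cpt1b encode the outer-membrane carnitine palmitoyltransferases that malonyl-CoA inhibits, Slc25a20 the carnitine-acylcarnitine translocase of the inner membrane, and Cpt2 the transferase that returns the acyl group to CoA. None of these 4 genes had a peak near a TSS or in its body. The nearest midpoint was 4.52 kb upstream of a TSS of Cpt1a and 3.88 kb upstream of a TSS of Cpt1b. The peak upstream of Cpt1b (chromosome 15, 89429560 to 89429934, −log10 p 5.13) lies 51 bp from the TSS of Gm44502, an annotated transcript that starts in the neighbouring gene Chkb and runs to the end of Cpt1b. For Slc25a20 the nearest midpoint was 13.2 kb away, near a TSS of Arih2, and for Cpt2 it was 66.4 kb away, near a TSS of Lrp8. The CpG ratio of a promoter is its number of CpG dinucleotides over the number its base composition would give. It was 0.760 at Cpt1a, 0.586 at Cpt2, 0.525 at Slc25a20 and 0.339 at Cpt1b. Among the 500 coding genes nearest in CpG ratio, 39.2% had a promoter peak for Cpt1a, 26.0% for Cpt2, 24.8% for Slc25a20 and 5.60% for Cpt1b. An empty promoter was thus the more frequent outcome for genes like each of the 4. This does not set them apart, since the highest such share of any of the 29 genes was 49.8%, at Acadl.

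Crat, the gene of carnitine acetyltransferase, which moves short acyl groups between CoA and carnitine, was the member of the shuttle with a promoter peak. The peak (chromosome 2, 30416111 to 30416485) has a −log10 p of 4.73, the smallest of the 16, and 7.98% of all promoter peaks have a smaller value. Its midpoint lies 485 bp upstream of the TSS, the farthest of the 17 genes, and the peak does not reach the TSS. The nearer coding TSS belongs to Ptpa, which starts within 1 kb of the midpoint. When each peak was given only to the coding gene with the nearest TSS, Crat lost its peak, and it also lost it when peaks with a −log10 p under 5 were left out.

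Acyl-CoA dehydrogenases carry out the opening step of each mitochondrial round, each for its own range of chain lengths. Acadl (long-chain) had a peak on chromosome 1 from 66862930 to 66863735 with a −log10 p of 6.49, which ran from −458 to 347 bp relative to the TSS (negative values are upstream). Acadm (medium-chain) had a peak on chromosome 3 from 153944013 to 153944693 with a −log10 p of 7.72, its midpoint in the first intron and 93 bp downstream of the TSS of a coding transcript. Acadvl (very-long-chain) had none, with the nearest midpoint 29.5 kb away near a TSS of Elp5. Acads (short-chain) had no promoter peak but a peak in a coding exon 7680 bp downstream of the start of its principal transcript (chromosome 5, 115111479 to 115111853). That peak has a −log10 p of 4.91, a CpG ratio of 0.289 and 10 CpGs in 375 bp. The dehydrogenase genes with a promoter peak had CpG ratios at their TSSs of 0.902 (Acadl) and 0.590 (Acadm), and those without had 0.607 (Acadvl) and 0.520 (Acads).

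Hadha and Hadhb encode the α and β subunits of the mitochondrial trifunctional protein, which carries out the later steps for long chains. The annotated ends of these genes are 86 bp apart and they are transcribed away from each other. The shared peak on chromosome 5, from 30155003 to 30155573, covers both starts, with a −log10 p of 8.36 that is larger than that of 74.1% of promoter peaks. The midpoint lies 126 bp upstream of the Hadha TSS and 16 bp downstream of a Hadhb TSS, so the peak cannot be assigned to either gene alone. The list has no second peak that would separate them.

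Other genes of the mitochondrial cycle also carried promoter peaks. Hadh, which encodes the hydroxyacyl-CoA dehydrogenase for shorter chains, had a peak on chromosome 3 from 131271662 to 131272062 with a −log10 p of 8.06. It was the only promoter peak besides that of Crat that did not cover a coding TSS, since it begins 39 bp downstream of it. Eci1 and Decr1, which encode the isomerase and the reductase needed for unsaturated fatty acids, had peaks with −log10 p of 6.76 (chromosome 17, 24426567 to 24427047) and 6.21 (chromosome 4, 15945027 to 15945658). Acaa2, which encodes the matrix thiolase, had no promoter peak, and the nearest midpoint was 15.9 kb downstream.

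The electron transfer flavoprotein passes electrons from the acyl-CoA dehydrogenases to its own oxidoreductase and so to the respiratory chain. Etfa (α subunit) and Etfdh (the oxidoreductase) had some of the strongest peaks among the 29 genes, with −log10 p of 9.27 and 9.39. The Etfa peak (chromosome 9, 55511688 to 55512433) ran from −190 to 555 bp relative to a coding TSS, and a 130 bp part of it has a match of 98.5% identity on chromosome 1, where no peak was called. The Etfdh peak (chromosome 3, 79628591 to 79629500) was the longest of the 16 at 910 bp. The TSS of another coding gene, 4930579G24Rik, lies within 1 kb of its midpoint and nearer than that of Etfdh, so under the nearest-gene rule the peak counted for that gene. Etfb (β subunit) had no peak, and the nearest midpoint was 150217 bp away, the farthest of any of the 29. Of the subunit pair Etfa and Etfb, which work as a dimer, only the former thus had a promoter peak in this list.

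**Figure D2:**
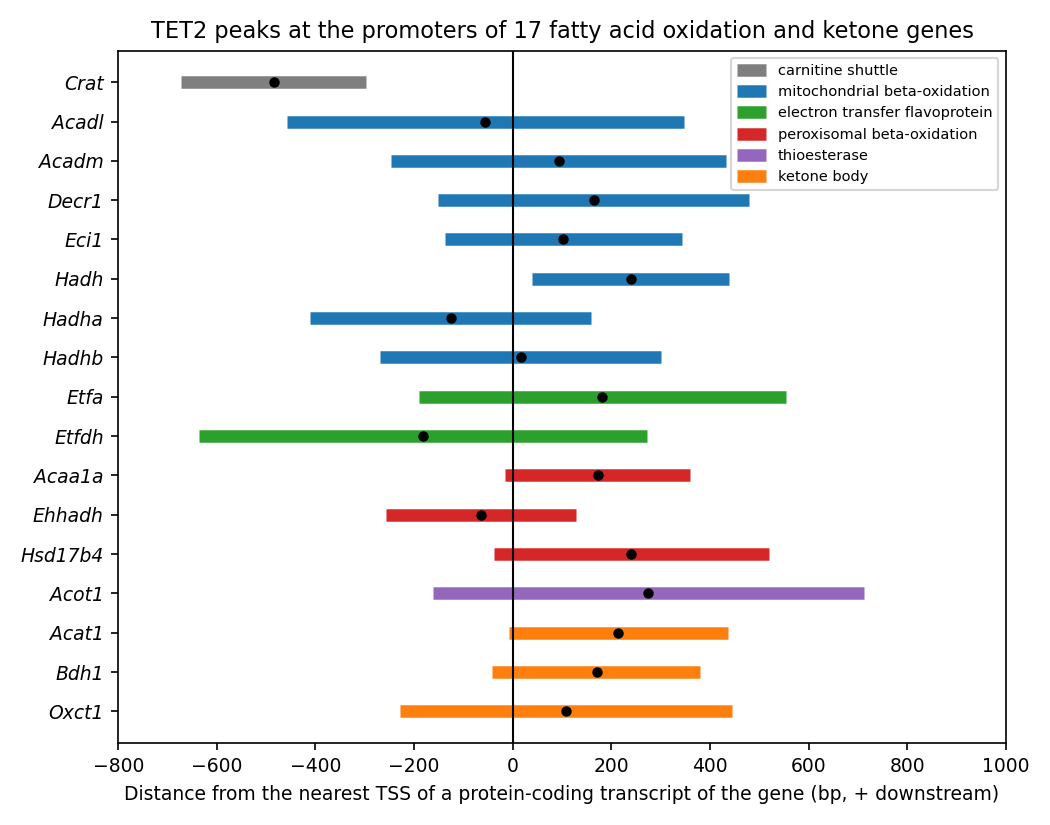
Extent of the promoter peak at each of the 17 genes (y axis, coloured by role) along the distance from the nearest TSS of a protein-coding transcript of that gene in bp (x axis, positive values downstream). Bars span the peak and black dots mark its midpoint. Bars cover position 0 in 15 of 17 genes, all but Crat and Hadh.

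Peroxisomal β-oxidation begins with an acyl-CoA oxidase and goes on through a bifunctional enzyme and a thiolase. A promoter peak was found at 3 of 6 peroxisomal genes (50.0%, exact 95% binomial interval 11.8% to 88.2%) and at 13 of 22 mitochondrial genes (59.1%, 36.4% to 79.3%), with the ketone genes, Crat and Acot2 counted as mitochondrial and Eci2, which acts in both organelles, as peroxisomal. These intervals overlap over most of their length, and 6 genes do not allow the shares to be told apart. Coding genes of similar CpG ratio had a peak in 24.6% of cases for the peroxisomal genes and in 33.6% for the mitochondrial genes. The observed counts of 3 and 13 thus stand beside 1.47 and 7.38 at those shares.

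Ehhadh encodes the peroxisomal L-bifunctional enzyme, a known target of PPARα. Its peak (chromosome 16, 21787678 to 21788063) had the largest −log10 p of the 16, 9.50, larger than that of 85.2% of promoter peaks, although the promoter has the lowest CpG ratio of the 17 genes, 0.405. Of the 500 coding genes nearest to it in CpG ratio, 10.4% had a promoter peak. Hsd17b4, which encodes the D-bifunctional enzyme, had a promoter peak on chromosome 18 from 50128163 to 50128720 with a −log10 p of 5.74. A further Hsd17b4 peak from 50134794 to 50135407, in an intron and 6900 bp downstream of the nearest coding TSS, had a −log10 p of 14.6 and ranked 130 among all 14103 peaks. This intronic peak lies wholly inside the processed pseudogene Cd63-ps (50134726 to 50135600), and parts of it match Cd63 on chromosome 10 with up to 99.3% identity. Reads from these sequences could have been placed at either locus, and their part in the peak was not tested. Acaa1a, which encodes a peroxisomal thiolase, had a peak on chromosome 9 from 119341500 to 119341874 with a −log10 p of 6.95. Over its whole length of 375 bp it matches the paralogue Acaa1b with 96.5% identity, and Acaa1b has a called peak overlapping the matching place, with a −log10 p of 6.06. Acox2 and Acox3, which encode oxidases for branched substrates, and Eci2 had no peak near a TSS or in the body, with the nearest midpoints 73.5, 18.7 and 71.6 kb away. The CpG ratio was 0.214 at Acox2, the lowest of the 29, but 0.694 at Acox3 and 0.671 at Eci2.

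Acot1 and Acot2 are neighbouring paralogues on chromosome 12 that encode the cytosolic and the mitochondrial acyl-CoA thioesterase, which release free fatty acids from CoA. Acot1 had a promoter peak from 84009328 to 84010202 with a −log10 p of 7.78, and Acot2 had none. The CpG ratios of both promoters were high, 0.852 and 0.903. A 673 bp part of the Acot1 peak matches the start of Acot2 with 93.2% identity, and no peak was called there. Further matches with 93.8% and 93.7% identity lie at Acot6 and Acot4, each with a called peak. These 3 rank first by identity times length among 6150 matches of at least 100 bp and 90% identity elsewhere in the genome, the best of which has 95.6% identity, and 14.5% of the peak is repeat-masked. How the aligner placed reads that fit several of these copies is not given in the sources used here, so the difference between Acot1 and Acot2 is uncertain.

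All 3 ketone body genes had a promoter peak, beside 40.9% of coding genes of similar CpG ratio. Bdh1 encodes the dehydrogenase that interconverts acetoacetate and β-hydroxybutyrate, Oxct1 the CoA transferase that lets tissues outside the liver use ketone bodies, and Acat1 the mitochondrial acetoacetyl-CoA thiolase. The Oxct1 peak (chromosome 15, 4026455 to 4027128) had a −log10 p of 8.68 and ran from −229 to 444 bp relative to a coding TSS. The Acat1 peak (chromosome 9, 53609946 to 53610389) had 7.21 and its midpoint in the first intron. The Bdh1 peak (chromosome 16, 31428707 to 31429128) had 6.76 and lay at an internal start of the gene, 6.64 kb downstream of the outermost Bdh1 TSS, where no peak was called. A further Bdh1 peak with a −log10 p of 7.78 lay in an intron (31442311 to 31442734), with a CpG ratio of 0.273 against 0.783 in the promoter peak. Together with Acads and Hsd17b4 this made 3 of 29 genes with a gene body peak beyond 3 kb of any own TSS, beside a mean of 11.9% among the 500 coding genes nearest in length.

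The 16 promoter peaks were of ordinary strength. Values of −log10 p lay between 4.73 and 9.50 (median 7.46), and the 5824 promoter peaks of the genome had a median of 6.90 and quartiles of 5.68 and 8.44. Of the 16, 10 lay above the median of all promoter peaks and none above the 90th percentile, 10.2. The weakest were those at Crat and Hsd17b4 and the strongest those at Ehhadh, Etfdh and Etfa, so mitochondrial and peroxisomal genes alike spanned this narrow range.

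**Figure D3:**
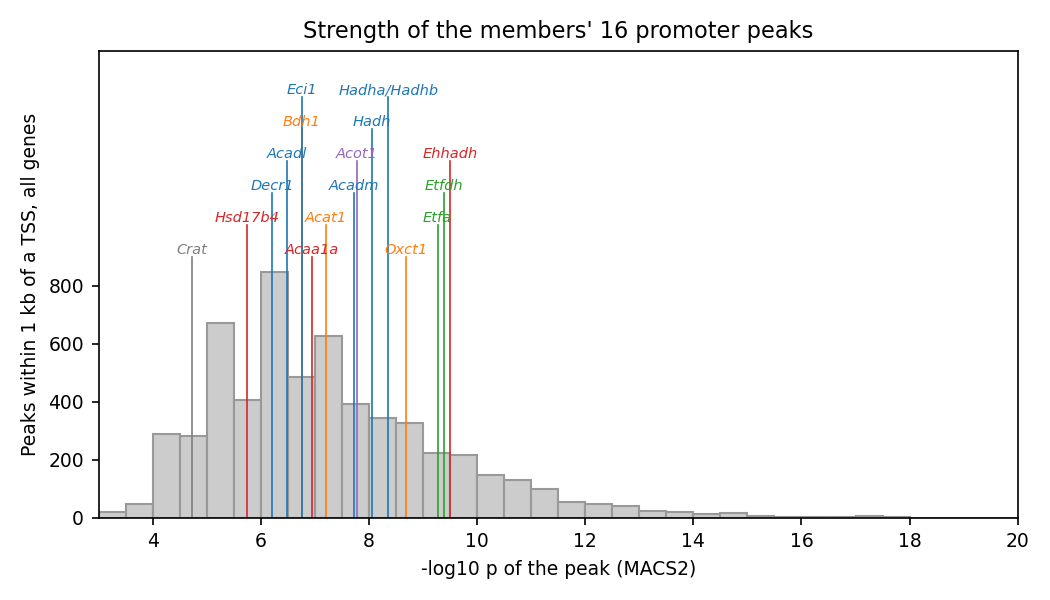
Number of peaks within 1 kb of a TSS of any gene (grey bars, y axis) by their −log10 p from MACS2 (x axis, cut at 20, above which 27 peaks lie), with a line at the value of each of the 16 promoter peaks of the fatty acid oxidation and ketone genes, coloured by role. The lines stand between 4.73 (Crat) and 9.50 (Ehhadh), within the bulk of all promoter peaks, and their height carries no value.

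The peaks sat at the start of the genes. The midpoint lay within 300 bp of a coding TSS at 16 of 17 genes, all but Crat, and downstream of it at 12 (70.6%), beside 70.7% of the promoter peaks of all coding genes. The median offset was 108 bp downstream, against 116 bp for all coding genes. The peak covered a coding TSS at 15 of 17 genes, or 88.2%, against 60.7%. Promoter peaks of the 29 genes were also longer, with a median of 564 bp against 463 bp for all promoter peaks. By annotation the midpoint lay in the first intron at 5 genes, in a coding exon at 4, in an untranslated exon at 3 and upstream of the gene at 4, and at Etfdh it lay in an exon of a non-coding transcript. Another coding gene started within 1 kb of the peak at 5 of 17 genes (29.4%), namely Crat, Hadha, Hadhb, Etfdh and Acaa1a, which has Myd88 next to it. This held for 18.2% of all coding genes with a promoter peak.

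Promoters rich in CpG carried TET2 peaks more often over the whole genome, so the 29 genes were set beside coding genes of similar CpG ratio, measured over 500 bp each side of each TSS and taken at the TSS with the highest ratio. The median was 0.694 in the 29 genes and 0.627 in all coding genes. For each gene the share with a promoter peak among the 500 coding genes nearest in CpG ratio ran from 2.60% (Acox2) to 49.8% (Acadl). Averaged over the 29 genes it was 32.0%, which corresponds to 9.28 genes, beside the 17 observed. The 29 genes also have more annotated TSSs, a median of 6 against 3, and the average was 32.1% when the similar genes were drawn from the same class of TSS number. Above and at the CpG ratio of 0.694, 12 of 15 genes had a promoter peak, against 41.7% of the other coding genes in that range. Below it 5 of 14 did (Acadm, Decr1, Etfdh, Ehhadh and Hsd17b4), against 12.1%. CpG ratio did not separate the genes fully: it ran from 0.405 to 0.902 in those with a promoter peak and from 0.214 to 0.903 in those without.

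**Figure D4:**
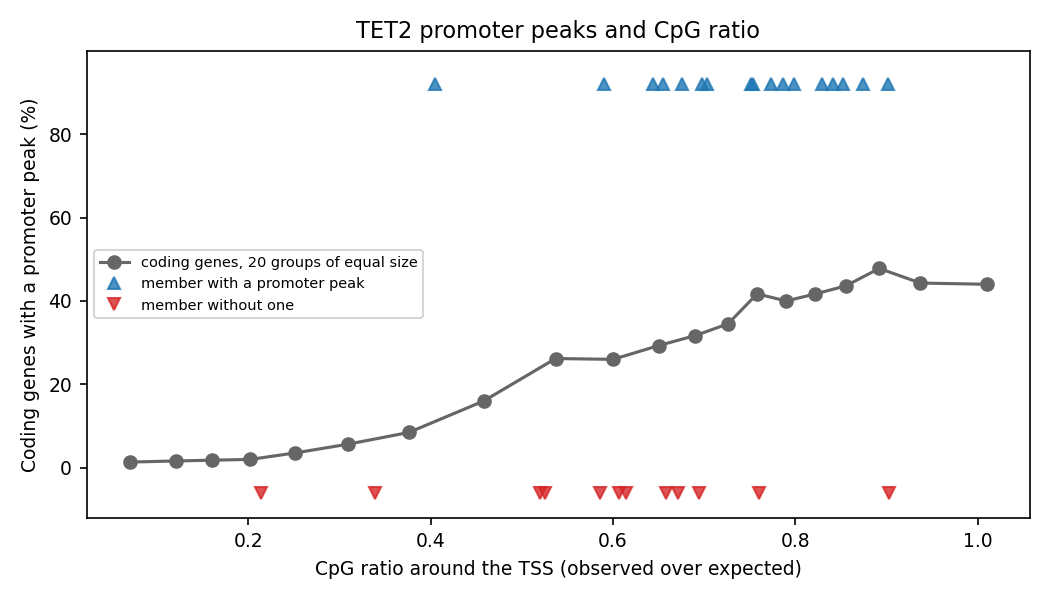
Percentage of coding genes with a TET2 promoter peak (y axis) by CpG ratio around the TSS (x axis), in 20 groups of equal size (grey points at the group medians). Blue triangles at the top mark the CpG ratio of the 17 genes with a promoter peak and red triangles at the bottom that of the 12 without one, and their height carries no value. The blue triangles crowd to the right of 0.59 except Ehhadh at 0.405, while the red ones spread from 0.214 to 0.903.

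Short sequence motifs were counted on both strands within 100 bp each side of the midpoint. GGGCGG, the core of the SP1 site, was present at 12 of 16 peaks (75.0%), among them the 5 peaks shown above (at Decr1 outside the printed stretch). It was present at 44.9% of all promoter peaks and, for peaks of similar GC content, at 51.2%. Whether the share at these 16 peaks differs from those was not tested. TTNNGNAA for C/EBP was found at 1 peak, that of Ehhadh (6.25%), against 10.9% of all promoter peaks and 8.29% of those of similar GC content. AGGTCA, the element that nuclear receptors such as PPARs bind in repeats, was found at 1 peak, that of Hadha and Hadhb (6.25%). Its shares were 7.14% of all promoter peaks and 6.46% of those of similar GC content. TCAAGGTCA for the oestrogen-related receptors, CACGTG (the E-box) and GCGCATGCG for NRF1 were found at none of the 16. Their shares were 0.189%, 5.05% and 0.841% of all promoter peaks, and 0.0875%, 5.25% and 0.875% of those of similar GC content. Motifs were searched by letters alone and may overlap one another, and a match marks no binding.

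A further 70 genes listed around the pathway were looked up in the same way. A promoter peak was found at 24 of them (34.3%, exact 95% binomial interval 23.3% to 46.6%), beside 31.1% of coding genes of similar CpG ratio. By group there were 9 of 20 genes listed as other mitochondrial fatty acid enzymes, beside 30.7% of coding genes of similar CpG ratio. Mcat, Mlycd and Ivd were among the 9. So were Slc22a5 and Aacs, which encode a carnitine transporter of the cell membrane and a cytosolic enzyme. The group is thus not purely mitochondrial. There were 8 of 19 other peroxisomal genes, among them Acot4, Phyh and Hacl1, beside 30.5%. Genes of fatty acid entry and activation had 3 of 14, namely Slc27a2, Slc27a4 and Acsl4, beside 27.0%, and regulators had 4 of 17, namely Rxra, Ppargc1b, Tfam and Ncor1, beside 35.6%. The exact 95% binomial interval of each of the 4 groups holds its own similar-CpG share, and the groups were not tested against each other. Crot, which makes acylcarnitines in the peroxisome, had a peak in its body only. Ppara and Ppargc1a, whose products drive oxidation genes, had none near a TSS. The largest −log10 p of these 24 genes was 33.3 at Slc27a2, a very-long-chain acyl-CoA synthetase, followed by 13.7 at Tfam, the mitochondrial transcription factor, 13.6 at Acot4, 9.82 at Mcat and 9.47 at Mlycd. None of the 16 promoter peaks described above reached the value at Acot4. The 29 genes and the 70 were chosen by name, and whether their shares differ was not tested.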

How the data were processed

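The authors checked reads with Fastqc, removed poor reads and adapters with NGS QC Toolkit, aligned them with bowtie1 and called peaks with MACS2, version 2.1.0 per the submitters' processing notes, against the input. The deposited list gives each peak's start, end and −log10 p; it holds no counts. The list has no header, and the column was read as −log10 p from the order of MACS2 output. The processing notes name mm10 (GRCm38) and the study's methods GRCm39, and GRCm38 coordinates were used without conversion. The 29 genes, the other gene lists and all tests were chosen with earlier results of these data known. All 29 genes and 5 sequences were named by rule: the sequences were those of the 2 largest and 2 smallest −log10 p outside chromosome 18 and of the shared peak.

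Peaks were placed by midpoint against every GENCODE M21 TSS of a gene. CpG ratios used 500 bp each side of a TSS and were compared with those of the 500 nearest coding genes, the 29 left out. Copies were blastn 2.17.0 matches of at least 100 bp and 90% identity. Placement was tested on simulated data. With 1 library no p-value was computed; binomial intervals cover counting error only. Software was scipy 1.17.1, pandas 2.3.3, numpy 2.4.6, matplotlib 3.10.9, samtools 1.23.1 and pysam 0.24.0 under Python 3.11.15. The comparison of motifs with peaks of similar GC content was chosen after seeing the data. Alternatives were other thresholds, windows, TSS sets and CpG measures. The input library and read signal were not analysed here.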

Additional observations from a re-analysis of the deposited data

How the results depend on the processing

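No paired analysis was possible because TET2 chromatin was sequenced from a single sample. Of 40 values under alternatives, 34 stayed the same, which for a count means within 1.5 times, and 6 moved. The count of genes with a promoter peak was 17 for coding or basic TSSs, for any base of the peak and for windows of 500 bp and 2 kb, 16 for peaks with a −log10 p of at least 5 (without Crat, against 22.1% of coding genes) and 14 when a peak counted only for the nearest coding gene (without Crat, Hadha and Etfdh, against 22.4%). With peaks of −log10 p of at least 5, 0 genes had a gene body peak only, since Acads has 4.91, the median −log10 p was 7.72 by construction, and the share among genes of similar CpG ratio was 28.7%. That share was 30.3% for coding TSSs, 29.8% for basic TSSs and 33.1% for the mean CpG ratio over TSSs. Leaving out the 3 genes whose promoter peak has a copy elsewhere (Etfa, Acaa1a and Acot1), an alternative chosen after seeing the data, left 14 of 26. Single weak peaks of 1 library, whose mapped read total is not given in the sources used here, limit what an absent peak shows.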
